A study of Mus musculus with 6 samples.

Results

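The phase II conjugation enzymes studied here are 39 genes of 4 families in mouse intestinal stem cells. They were taken from all protein-coding genes whose symbol starts with Gst, Mgst, Ugt or Sult followed by the letters or digits of an enzyme name, by requiring at least 20 counts in at least 3 of the 6 libraries. Of 69 such genes, 39 met the rule. They comprise 21 of 23 soluble glutathione S-transferases (GST), all 3 microsomal glutathione S-transferases (MGST), 7 of 22 UDP-glucuronosyltransferases (UGT) and 8 of 21 sulfotransferases (SULT). The count tables list 54838 gene identifiers in all. The rule used the size of the counts, and 2 of the 39 genes met it through the libraries of 1 treatment group only, Sult1c2 through DMSO and Sult1a1 through INT-777.

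Conjugation enzymes attach a polar group to a reactive or fat-soluble molecule, which makes it easier to export. GST and MGST use glutathione, UGT use glucuronic acid carried on UDP, and SULT use sulfate carried on the donor PAPS. In the intestine these enzymes act on food compounds, drugs, steroids, bile acids and products of lipid peroxidation, and many of their genes respond to the sensors AHR, PXR and NRF2.

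The study asked which genes respond when TGR5, a cell-surface receptor for bile acids, is stimulated in intestinal stem cells. INT-777, derived from a bile acid by synthesis, is an agonist of this receptor. All mice were of the strain B6.129P2-Lgr5tm1(cre/ERT2)Cle/J, in which the stem cell gene Lgr5 drives green fluorescent protein and an inducible Cre, and on each of 3 days reporter-high cells were collected by sorting from pooled intestines of 4 mice. About 200000 cells, 20000 in each Matrigel drop of 10 µL, were kept in crypt medium with JAG-1 at 1 µM and CHIR99021, an inhibitor of GSK3, at 3 µM. The 2 groups are INT-777 at 30 µM (n = 3 libraries) and DMSO as the control (n = 3), both started 4 h after embedding, with 1 library of each per day. The sample labels put the treatment at 12 h and the design text at 16 h. The ages of the mice and the intestinal segment are not given in the sources used here. Each library is a pool of mice, and no tamoxifen is mentioned.

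Between 45682340 and 47905087 read pairs per library were assigned to genes, and 15998 genes were tested. Days 1 and 2 were nearly alike, with a biological coefficient of variation of 2.71% between the INT-777 libraries and 1.99% between the DMSO libraries. Day 3 stood apart, at 16.9% from day 1 with INT-777 and 19.4% with DMSO. Since a replicate number stands for a day on which both cultures came from 1 sort, the treatment was compared within days (edgeR quasi-likelihood test with the day as a block). A log2 difference is followed by its SE and, in brackets, by the edgeR adjusted p, with that of the fit without the block beside it. Sorted cells are a mixture of states, and in such bulk libraries fewer cells of a type and less RNA per cell cannot be told apart. Summed stem cell markers were 2369, 2350.04 and 1876 CPM with INT-777 and 2722, 2702 and 2256 CPM with DMSO. Lgr5 itself, the gene behind the sort, had 67.2, 64.6 and 53.7 CPM with INT-777 and 72.3, 74.5 and 62.2 CPM with DMSO. The 15 immune markers summed to 3.56 to 9.29 CPM with INT-777 and 3.26 to 9.64 CPM with DMSO, with none at 0 in every library.

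Among the conjugation enzyme genes more were lower than higher with INT-777. At an adjusted p under 0.05, 16 of the 39 were lower, where 10.3% of all genes tested were called lower, and 3 of the 39 were higher, where 11.1% of all genes were called higher. The lower genes comprised 12 of 21 GST, 1 of 3 MGST, 1 of 7 UGT and 2 of 8 SULT. Without Sult1c2 and Sult1a1, 15 of 37 were lower, 1 of them a SULT. The higher genes were Gsta3, Mgst2 and Sult2b1, which gives 1 each in GST, MGST and SULT and none in UGT. The median log2 difference was -0.18 over the 39 genes and 0.00 over all genes tested, with family medians of -0.21 for GST, -0.04 for MGST, -0.10 for UGT and -0.32 for SULT. Summed SULT CPM went the other way, with INT-777 to DMSO ratios of 1.04, 1.13 and 1.17 on days 1, 2 and 3. The ratios were 0.868, 0.908 and 0.927 for GST, 0.945, 1.00 and 0.992 for MGST, and 0.946, 0.967 and 0.915 for UGT. The sign was negative for 30 of 39, against 49.2% of all genes. The value lay lower with INT-777 on all 3 days for 24 of 39, against 25.3% of all genes, and the groups did not overlap for 15 of 39, against 24.5% of all genes. Sult1c2 and Sult1a1, which met the count rule through 1 group only, are both among these 15. Sult1c2 is also among the 30 with a negative sign and the 24 lower on all 3 days. All 39 passed the low-count filter.

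**Figure D1:**
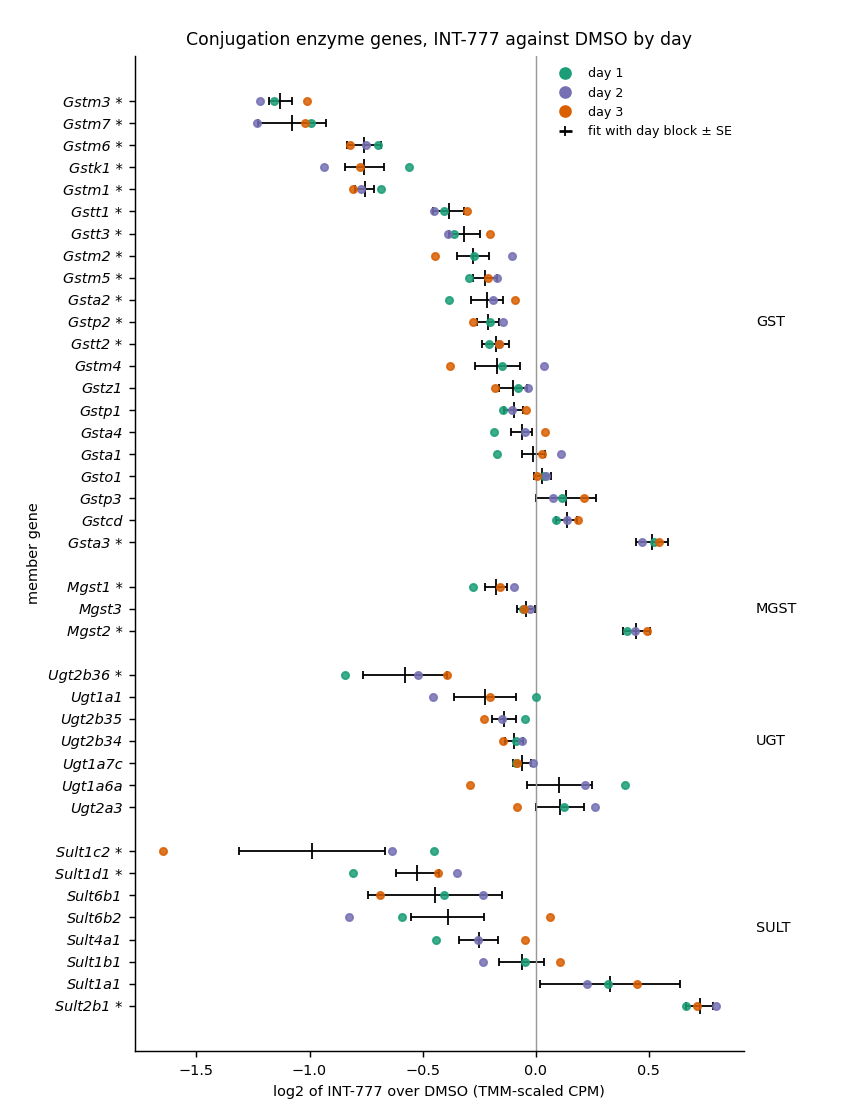
The log2 difference of INT-777 over DMSO is shown on the x axis for each of the 39 genes, grouped by family. Coloured points are single days, black ticks and bars are the edgeR estimate ± SE, and an asterisk marks an adjusted p under 0.05. Gstm3 lies lowest at -1.13 among called genes and Sult2b1 highest at 0.72, with all 3 days of each on the same side of 0.

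Without the day block, Sult2b1 was higher and Gstm3 lower among the 39, where 0.688% of all genes passed as higher and 0.763% as lower, and the other 17 calls were lost. The spread between day 3 and the other days enters the error of that fit, and its coefficient of biological variation, common to all genes, was 0.149, against 0.048 in the fit with the block. With day 3 left out and no block, 18 of the 19 calls were made, all but that of Sult1c2. With day 1 or day 2 left out and no block, none of the 19 was called.

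The mu class of GST held the genes with the lowest log2 differences, Gstm3 and Gstm7. This class, whose members conjugate epoxides and aryl halides, is encoded by a cluster of 7 genes on chromosome 3. With INT-777, 6 of the 7 were lower and none was higher, and the class median was -0.76 on the log2 scale. Gstm3 (chr3:107963696-107969283, GRCm38, minus strand) had 36.9, 36.9 and 48.8 CPM in the INT-777 libraries of days 1, 2 and 3, against 82.4, 86.0 and 98.4 CPM in the DMSO libraries. Every INT-777 library lay below every DMSO library, by about the same ratio on each day. The means were 40.9 ± 6.83 CPM with INT-777 and 88.9 ± 8.41 CPM with DMSO (SD, n = 3 each), a fold of 0.460, and the log2 difference was -1.13 ± 0.05 (SE; edgeR adjusted p = 1.86e-09, and 0.0141 without the block).

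Gstm1 (chr3:108012255-108017973), the mu gene with the highest level per exon length, had 114, 115 and 162 CPM in the INT-777 libraries of days 1, 2 and 3, against 184, 197 and 284 CPM in the DMSO libraries. The groups did not overlap, but the INT-777 library of day 3 came near the DMSO libraries of days 1 and 2. The log2 difference was -0.76 ± 0.04 (edgeR adjusted p = 1.05e-08, and 0.189 without the block). Gstm6 (chr3:107938847-107943749) had 8.95, 8.58 and 12.5 CPM in the INT-777 libraries of days 1, 2 and 3, against 14.5, 14.5 and 22.2 CPM in the DMSO libraries, with a log2 difference of -0.76 ± 0.07 (edgeR adjusted p = 3.84e-06, and 0.174 without the block). Gstm7 (chr3:107926334-107931817), the mu gene with the lowest level per exon length, had 1.17, 1.24 and 2.05 CPM in the INT-777 libraries of days 1, 2 and 3, against 2.32, 2.91 and 4.16 CPM in the DMSO libraries. Its log2 difference was -1.08 ± 0.15 (edgeR adjusted p = 0.00014, and 0.142 without the block). In both Gstm6 and Gstm7 day 3 was high in each group, and the groups did not overlap.

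The remaining mu genes differed less. Gstm2 had 18.8, 20.8 and 21.3 CPM with INT-777 and 22.8, 22.4 and 29.0 CPM with DMSO, at a log2 difference of -0.28 ± 0.07 (edgeR adjusted p = 0.0101, and 0.263 without the block). Gstm5, the first gene of the cluster, had 35.2, 37.5 and 35.8 CPM with INT-777 and 43.2, 42.3 and 41.4 CPM with DMSO, at -0.22 ± 0.05 (edgeR adjusted p = 0.00621, and 0.0997 without the block). The groups of both genes were separate, and Gstm5 was nearly level across days within a group. Its call was lost without the DMSO library of day 1 or of day 2 (edgeR adjusted p of 0.0515 to 0.0614). Gstm4, the last gene of the cluster, had 7.04, 6.91 and 7.92 CPM with INT-777 and 7.79, 6.73 and 10.3 CPM with DMSO, with overlapping groups, and was not called (-0.17 ± 0.10, edgeR adjusted p = 0.253).

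**Figure D2:**
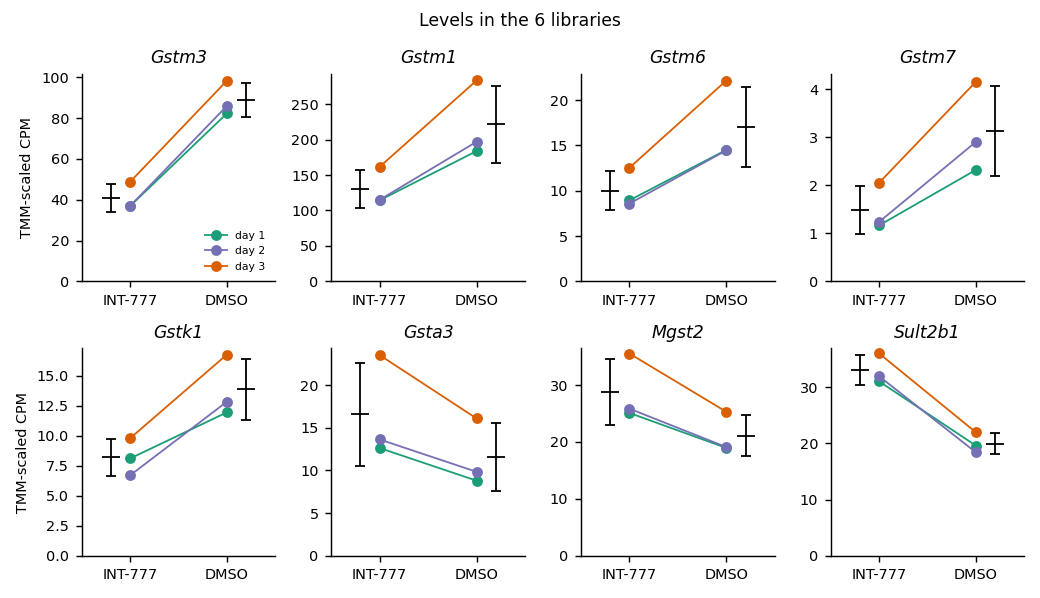
TMM-scaled CPM on the y axis, from 0, is shown for 8 genes with INT-777 left and DMSO right. Lines join the libraries of a day, and ticks with bars give the mean ± SD (n = 3). For Gstm3 the INT-777 libraries lie at 36.9 to 48.8 CPM and the DMSO libraries at 82.4 to 98.4 CPM, while for Gsta3, Mgst2 and Sult2b1 each INT-777 point lies above the DMSO point of its day.

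The cluster runs over 149.1 kb (chr3:107895821-108044894). In the order of the chromosome the log2 differences were -0.22 for Gstm5, -1.08 for Gstm7, -0.76 for Gstm6, -1.13 for Gstm3, -0.28 for Gstm2, -0.76 for Gstm1 and -0.17 for Gstm4. The lowest values therefore lay inside the cluster and not at its ends, with Gstm2 as a smaller difference between Gstm3 and Gstm1. Of the 4 other protein-coding genes tested within 100 kb, Eps8l3, which codes for an actin regulator and lies just before Gstm5, was lower at -0.43 ± 0.05 (edgeR adjusted p = 2.8e-05, and 0.0236 without the block). Ampd2, Gnat2 and Gnai3, on the far side of Gstm4, were at 0.10, 0.00 and 0.01 and were not called. Of genes that are not protein-coding, 4933431E20Rik and Gm43745, on the side of Eps8l3, were lower at -0.38 and -0.53. Their edgeR adjusted p was 0.00602 and 0.0233, and 0.192 and 0.143 without the block. Gm12500, beside Ampd2, was at 0.17 and was not called.

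**Figure D3:**
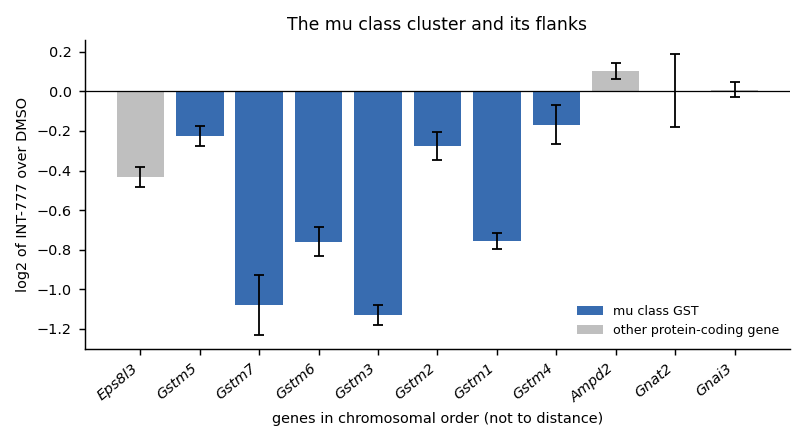
The log2 difference of INT-777 over DMSO (edgeR with the day block, bars ± SE) is drawn on the y axis for the mu genes and the other protein-coding genes within 100 kb, in chromosomal order. The mu genes lie between -1.13 and -0.17. Eps8l3, before the cluster, lies at -0.43, and Ampd2, Gnat2 and Gnai3, after it, lie at 0.10, 0.00 and 0.01.

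Some mu genes share stretches of transcript sequence with other genes, so read assignment bears on their values. Uniqueness was taken as the share of 100-base stretches of a gene's longest protein-coding transcript found in the transcripts of no other gene. It was 86.2% for Gstm3, 92.3% for Gstm1 and 97.6% for Gstm6, and at least 99% for Gstm2, Gstm4, Gstm5 and Gstm7. Pairs that fit several places were not counted by the authors' counting. Gstm5 shares exon bases with the non-coding gene 4933431E20Rik, and bases shared by 2 genes were not counted either.

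Markers of goblet cells, the mucus-secreting cells of the intestine, differed in the same direction as the mu genes. Of 10 goblet markers 9 were lower with INT-777, where 10.3% of all genes were, and 0 of 10 were lower in the fit without the block. None was at 0 in every library. They summed to 3021, 2922 and 12524 CPM with INT-777 and 5692, 5598 and 28339.8 CPM with DMSO, an INT-777 to DMSO ratio of 0.531, 0.522 and 0.442 on days 1, 2 and 3. The 7 mu genes summed to 223, 227 and 290.2 CPM with INT-777 and 357, 372 and 489 CPM with DMSO, a ratio of 0.624, 0.611 and 0.593. Between days the lists parted: day 3 over day 1 within DMSO was 4.98 for the goblet markers and 1.37 for the mu genes. Goblet markers were not the only such list. Summed enterocyte, stem cell, Paneth, enteroendocrine, stromal and liver markers also had INT-777 to DMSO ratios below 1 on every day. For liver markers these were 0.620, 0.581 and 0.392. Tuft markers lay above 1 on every day, and immune markers on days 1 and 2 only. The part of goblet or other cell content in the mu result was not tested.

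The promoter windows of the mu genes are shown because their genes lie side by side and differ from DMSO by unequal amounts. RefSeq windows on GRCm38.p6 reach from 250 bases before to 50 after a transcript start, and the window nearest to the annotated start of the gene was used. Gstm3 (minus strand, chr3:107969125-107969424), Gstm1 (minus strand, chr3:108017924-108018223) and Gstm5 (plus strand, chr3:107895604-107895903) are printed 5′ to 3′ beside Gsta3 (plus strand, chr1:21240335-21240634), a GST gene that was higher. Capitals mark TGACNNNGC, the core of the antioxidant response element bound by NRF2, and GCGTG, the core bound by AHR, on either strand. In Gstm5 the longer run of capitals is a match to the antioxidant core that holds the AHR core of the other strand.
Gstm3: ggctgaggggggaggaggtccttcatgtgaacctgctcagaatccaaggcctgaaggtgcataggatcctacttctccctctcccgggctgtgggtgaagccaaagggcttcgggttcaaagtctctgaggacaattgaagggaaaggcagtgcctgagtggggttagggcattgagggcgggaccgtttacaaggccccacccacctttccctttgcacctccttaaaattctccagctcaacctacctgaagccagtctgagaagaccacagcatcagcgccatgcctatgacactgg
Gstm1: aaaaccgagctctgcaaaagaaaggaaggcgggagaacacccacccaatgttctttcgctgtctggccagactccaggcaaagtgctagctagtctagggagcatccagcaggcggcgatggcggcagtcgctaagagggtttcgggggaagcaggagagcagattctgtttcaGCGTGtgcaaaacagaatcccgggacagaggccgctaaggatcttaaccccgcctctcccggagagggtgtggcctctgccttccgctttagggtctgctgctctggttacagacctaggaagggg
Gstm5: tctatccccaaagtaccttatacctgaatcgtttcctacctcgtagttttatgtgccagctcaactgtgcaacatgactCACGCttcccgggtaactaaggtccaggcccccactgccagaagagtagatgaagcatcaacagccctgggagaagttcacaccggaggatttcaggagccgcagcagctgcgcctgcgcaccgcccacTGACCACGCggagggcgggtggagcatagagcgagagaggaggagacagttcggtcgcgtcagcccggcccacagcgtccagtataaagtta
Gsta3: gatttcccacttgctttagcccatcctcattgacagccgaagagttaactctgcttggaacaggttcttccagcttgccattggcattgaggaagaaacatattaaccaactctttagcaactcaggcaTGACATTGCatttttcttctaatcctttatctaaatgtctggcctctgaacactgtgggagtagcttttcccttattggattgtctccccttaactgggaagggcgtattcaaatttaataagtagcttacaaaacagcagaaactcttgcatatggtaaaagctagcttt
The Gstm3 window held neither motif, Gstm1 held GCGTG at 76 bases before the start, Gstm5 held both, and Gsta3 held TGACNNNGC at 121 bases before the start. Over all 32851 windows, TGACNNNGC was in 12.4% and GCGTG in 32.4%. Of the 36 conjugation enzyme genes with a window, 3 held TGACNNNGC (Gsta3, Gstm5 and Mgst1) and 10 held GCGTG. Some windows lay far from the annotated start of the gene, by 25057 bases for Sult2b1, 8643 for Gsta2 and 3802 for Gstp2. Sult2b1 and Gsta2 are among the 10. The full cAMP response element TGACGTCA was in 1.79% of all windows and in 0 of the 36. Aligned in pairs, the 7 mu windows were identical at 48.3% to 53.3% of positions, and their longest shared runs were 7 to 14 bases. No other windows were aligned, so whether these values exceed those of unrelated windows was not tested. The Gstm3 and Gstm2 windows shared the run of 14, which in both lies within the 50 bases after the transcript start and not before it. A match of letters is a description and does not show binding.

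The other soluble GST genes included 1 further large difference. Gstk1 (chr6:42245935-42250447), the kappa class enzyme of mitochondria and peroxisomes, had 8.10, 6.70 and 9.78 CPM in the INT-777 libraries of days 1, 2 and 3, against 11.9, 12.8 and 16.8 CPM in the DMSO libraries. The groups did not overlap. The log2 difference was -0.76 ± 0.09 (edgeR adjusted p = 2.1e-05, and 0.101 without the block), close to that of Gstm1.

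All 3 theta genes, whose enzymes act on small halogenated compounds and which lie together on chromosome 10, were lower. Gstt1 (chr10:75783813-75798584) had 12.4, 11.5 and 20.3 CPM with INT-777 and 16.4, 15.7 and 25.1 CPM with DMSO, at a log2 difference of -0.38 ± 0.07 (edgeR adjusted p = 0.000969, and 0.57 without the block). Gstt3 had 14.5, 14.9 and 19.1 CPM with INT-777 and 18.7, 19.4 and 22.0 CPM with DMSO, at -0.32 ± 0.07 (0.00372, and 0.264 without the block). Gstt2 had 20.9, 20.6 and 24.9 CPM with INT-777 and 24.1, 23.1 and 27.9 CPM with DMSO, at -0.18 ± 0.06 (0.0442, and 0.438 without the block). In each gene INT-777 was below DMSO within every day, and the groups overlapped, with day 3 higher in both. The Gstt3 call was lost without either day 2 library (edgeR adjusted p of 0.0519 to 0.0835), and that of Gstt2 without any library of days 1 or 2 (0.187 to 0.234). Gstt3 shares exon bases with Gm20441.

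The alpha class differed among its members. Gsta3 (chr1:21240589-21265661), whose mouse enzyme is known for conjugating the epoxide of aflatoxin, had 12.6, 13.6 and 23.5 CPM in the INT-777 libraries of days 1, 2 and 3, against 8.79, 9.83 and 16.1 CPM in the DMSO libraries. It was higher on every day, and the groups overlapped through the DMSO library of day 3. Its means were 16.6 ± 6.01 CPM with INT-777 and 11.6 ± 3.94 CPM with DMSO (SD, n = 3 each), with a log2 difference of 0.51 ± 0.07 (edgeR adjusted p = 0.000127, and 0.506 without the block). Gsta2 had 13.9, 14.6 and 26.4 CPM with INT-777 and 18.2, 16.6 and 28.2 CPM with DMSO and was lower at -0.22 ± 0.07 (0.0394, and 0.817 without the block), a call lost without any library of days 1 or 2 (edgeR adjusted p of 0.120 to 0.320). Gsta4, which removes the lipid peroxidation product 4-hydroxynonenal, and Gsta1 were at -0.06 ± 0.05 and -0.01 ± 0.05 and were not called (edgeR adjusted p = 0.384 and 0.905). Gsta1 and Gsta2 are uncertain as single genes, since 18.2% of 100-base stretches were unique in Gsta1 and 65.0% in Gsta2.

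The pi class holds Gstp1, the gene with the highest level per exon length of all 39. It (chr19:4035407-4037985) had 961, 996 and 1485 CPM in the INT-777 libraries of days 1, 2 and 3, against 1065, 1071 and 1528 CPM in the DMSO libraries. The groups overlapped, and the difference of -0.10 ± 0.04 was not called (edgeR adjusted p = 0.12). Gstp2, beside it on chromosome 19, had 28.9, 29.0 and 82.1 CPM with INT-777 and 33.2, 32.0 and 99.5 CPM with DMSO and was called lower at -0.21 ± 0.05 (0.00719, and 0.9 without the block), with an edgeR adjusted p of 0.0504 without the DMSO library of day 2. Its difference between days was far larger than that between treatments, with a log2 value of 1.54 for day 3 over day 1. Gstp1 and Gstp2 share transcript sequence with each other and with the pseudogene Gstp-ps (47.2% and 36.5% unique), so reads may be divided between them. Gstp3 was at 0.13 ± 0.13 and was not called. Nor were Gsto1, an omega class enzyme that reduces dehydroascorbate (0.03 ± 0.04), Gstz1, the isomerase of tyrosine breakdown (-0.10 ± 0.06), or Gstcd, which carries the C-terminal GST domain (0.14 ± 0.05, edgeR adjusted p = 0.0509). Gstz1 and Gstcd share exon bases with neighbours, as do Sult1a1 and Sult6b1.

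The 3 microsomal genes gave 1 call in each direction. Mgst2 (chr3:51660360-51682677), which can form leukotriene C4 as well as glutathione conjugates, had 25.1, 25.9 and 35.5 CPM in the INT-777 libraries of days 1, 2 and 3, against 19.0, 19.1 and 25.3 CPM in the DMSO libraries. Each INT-777 library was above the DMSO library of its day, and the groups overlapped by the DMSO value of day 3. The means were 28.8 ± 5.82 CPM with INT-777 and 21.1 ± 3.63 CPM with DMSO (SD, n = 3 each), and the log2 difference was 0.45 ± 0.06 (edgeR adjusted p = 7.77e-05, and 0.27 without the block). Mgst1, an enzyme with peroxidase activity in microsomes and the outer mitochondrial membrane, had 61.1, 65.2 and 66.2 CPM with INT-777 and 74.2, 69.7 and 73.8 CPM with DMSO. Its groups did not overlap, and it was lower at -0.18 ± 0.05 (0.0159, and 0.182 without the block). That call was lost without either day 1 library or the DMSO library of day 2 (edgeR adjusted p of 0.0685 to 0.172). Mgst3, the microsomal gene with the highest level per exon length, had 93.5, 98.0 and 118 CPM with INT-777 and 97.1, 99.6 and 122 CPM with DMSO and was not called (-0.04 ± 0.04, edgeR adjusted p = 0.505).

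Of the 7 UGT genes 1 was called. Ugt2b36 (chr5:87065927-87092555) had 1.02, 1.20 and 1.35 CPM in the INT-777 libraries of days 1, 2 and 3, against 1.82, 1.71 and 1.77 CPM in the DMSO libraries. The groups did not overlap, and the log2 difference was -0.58 ± 0.19 (edgeR adjusted p = 0.0376, and 0.174 without the block). This call was lost with DESeq2, in each strand column and without any library of days 1 or 2 (edgeR adjusted p of 0.122 to 0.227). Ugt2b35, next to it, had 49.3, 46.3 and 40.7 CPM with INT-777 and 50.9, 51.2 and 47.7 CPM with DMSO and missed the threshold at -0.14 ± 0.05 (0.067). Ugt2b34 was at -0.10 ± 0.04 (0.0957) and Ugt2a3 at 0.11 ± 0.11. UGT2 enzymes glucuronidate steroids, bile acids and drugs.

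The UGT1A enzymes come from 1 locus on chromosome 1, where alternative first exons are joined to shared last exons. Bases that belong to more than 1 annotated gene were not counted, so a count for a Ugt1a gene rests on what is annotated for that gene alone. For Ugt1a7c this is 1915 bases, of which 998 lie past the annotated end of the other Ugt1a genes and so may hold reads from any of them. Its values were 162, 168 and 192 CPM with INT-777 and 173, 169 and 203 CPM with DMSO, with overlapping groups and a difference of -0.06 ± 0.04 (edgeR adjusted p = 0.315). Ugt1a1, the enzyme that conjugates bilirubin, had 2.69, 2.77 and 3.19 CPM with INT-777 and 2.69, 3.80 and 3.66 CPM with DMSO over 385 countable bases and was not called (-0.22 ± 0.14, edgeR adjusted p = 0.275). It was called lower in each strand column, at -0.45 in the first and -0.31 in the second (edgeR adjusted p = 0.0146 and 0.0348). Ugt1a6a, which acts on planar phenols, was at 0.10 ± 0.14 and was not called. Unique 100-base stretches made up 0% of Ugt1a6a, 31.2% of Ugt1a7c and 42.8% of Ugt1a1, and these values are uncertain as those of single genes.

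Sult2b1 had the highest log2 difference of the 39 genes. This sulfotransferase (chr7:45729983-45784669), which acts on cholesterol and other 3-hydroxysteroids, had 31.1, 32.0 and 36.0 CPM in the INT-777 libraries of days 1, 2 and 3, against 19.6, 18.4 and 22.0 CPM in the DMSO libraries. All INT-777 libraries lay above all DMSO libraries. The means were 33.0 ± 2.65 CPM with INT-777 and 20.0 ± 1.81 CPM with DMSO (SD, n = 3 each), a fold of 1.65, and the log2 difference was 0.72 ± 0.06 (edgeR adjusted p = 6e-07, and 0.0155 without the block). Its exons overlap those of Gm31597 and Lmtk3 in part, and shared bases were not counted.

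Sult1d1 (chr5:87554645-87569027), which in mice sulfates catecholamines and other phenols, had 6.08, 7.26 and 10.1 CPM in the INT-777 libraries of days 1, 2 and 3, against 10.6, 9.25 and 13.7 CPM in the DMSO libraries. INT-777 was lower within each day, and the groups overlapped. The log2 difference was -0.52 ± 0.10 (edgeR adjusted p = 0.00122, and 0.307 without the block). Sult1c2 had 0.318, 0.336 and 0.385 CPM with INT-777 and 0.434, 0.521 and 1.21 CPM with DMSO and was called lower at -0.99 ± 0.32 (0.0403, and 0.28 without the block). With 15, 16 and 18 counts with INT-777 and 20, 24 and 56 counts with DMSO, it met the count rule through the group in which it was higher, which favours a lower call. Its DMSO value of day 3 stood above the rest, and the call was lost without any library of days 2 or 3 (edgeR adjusted p of 0.0611 to 0.387). Sult4a1, Sult6b1, Sult6b2, Sult1a1 and Sult1b1 were not called, with log2 differences of -0.25 ± 0.09 (edgeR adjusted p = 0.051), -0.45 ± 0.30, -0.39 ± 0.16, 0.33 ± 0.31 and -0.06 ± 0.10.

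The levels of these genes span more than the treatment differences do. Per kilobase of exon counted for a single gene, Gstp1 averaged 741 CPM per kb with INT-777 and 789 with DMSO. Next by the DMSO level, Gsta4 averaged 335 CPM per kb with INT-777 and 346 with DMSO, and Gsta1 averaged 247 CPM per kb with INT-777 and 248 with DMSO. Pairs that fit several places were not counted. Unique 100-base stretches made up 18.2% of Gsta1, 47.2% of Gstp1 and 100% of Gsta4, so Gsta1 and Gstp1 may be undercounted beside Gsta4. Gstm1 averaged 88.6 CPM per kb with INT-777 and 150.4 with DMSO, and Gsto1 averaged 101 CPM per kb with INT-777 and 98.7 with DMSO. Gstm1 thus stood below Gsto1 with INT-777 and above it with DMSO. The highest microsomal gene was Mgst3 (94.0 CPM per kb with INT-777 and 96.9 with DMSO), the highest UGT was Ugt1a7c (90.9 CPM per kb with INT-777 and 94.8 with DMSO), subject to the shared locus, and the highest SULT was Sult2b1 (9.10 CPM per kb with INT-777 and 5.51 with DMSO). Sult1a1, Sult6b1 and Sult1c2 were the lowest of the 39. The GST genes together took 75.9%, 76.2% and 80.8% of the summed CPM of the 39 genes with INT-777 and 77.5%, 77.7% and 81.2% with DMSO.

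**Figure D4:**
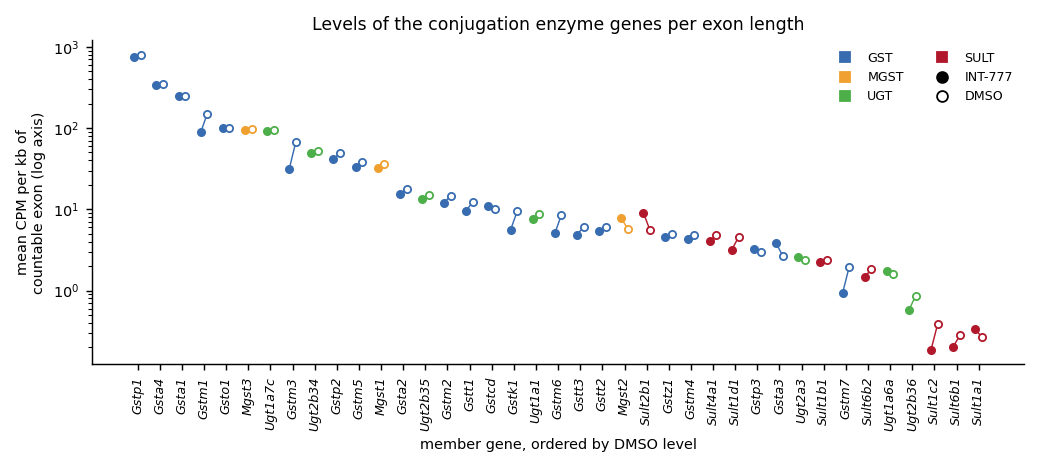
Mean CPM per kilobase of exon counted for a single gene is shown on a log y axis for the 39 genes, ordered by the DMSO level. Filled points are INT-777 and open points are DMSO (means of 3 libraries), coloured by family. Gstp1 is highest at 741 CPM per kb with INT-777 and 789 with DMSO, and Gstm3 lies at 31.2 CPM per kb with INT-777 and 67.8 with DMSO.

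Of the 30 genes that missed the count rule, 18 had no count in any library and 12 had at least 1. Those without counts included the Sult2a genes, which sulfate bile acids and steroids in liver, and Sult1e1, the estrogen sulfotransferase. Closest to the rule was Ugt2b5, which reached 20 counts in 2 libraries, with 9 to 32 counts. The other soluble GST genes outside the rule were Gsto2, with 10 to 16 counts, and Gstt4, with 0 to 4. Just inside the rule, Sult1c2 reached 20 counts in the DMSO libraries alone and Sult1a1 in the INT-777 libraries alone (23, 23 and 22 counts with INT-777 and 18, 19 and 16 with DMSO). Of the 39 genes 36 reached it in all 6 libraries.

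The day of the experiment also moved these genes. By the edgeR F-test of the day terms, 21 of the 39 differed between days, where 20.5% of all genes did, and for 20 of the 39 day 3 was above day 1, where 11.9% of all genes were called with that sign. Of the 16 genes lower with INT-777, 11 were higher on day 3. Of the 3 genes higher with INT-777, 2 were higher on day 3, Gsta3 at a log2 value of 0.88 and Mgst2 at 0.46. Gstm1 was at 0.56, Gstm7 at 0.83 and Gstt1 at 0.66 for day 3 over day 1, while Gstm5 was at -0.02. All 10 enteroendocrine markers differed between days in the same test, with a DMSO ratio of day 3 over day 1 of 4.37 for their sum.

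**Figure D5:**
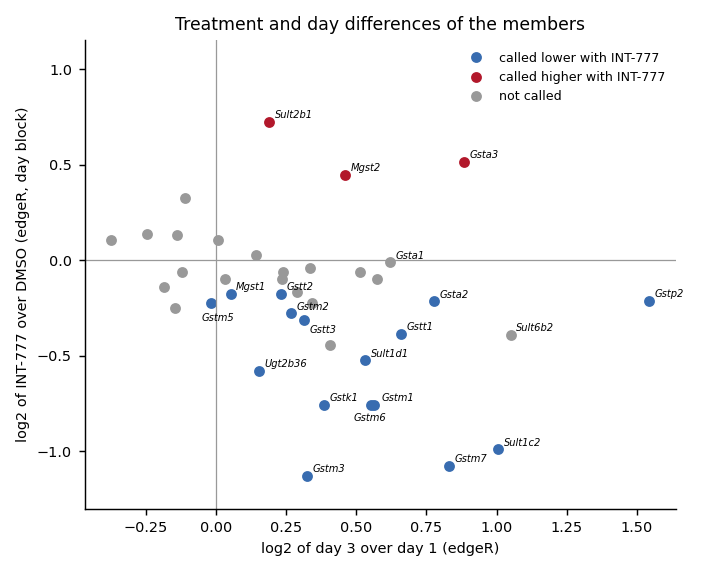
Each point is a gene, with the log2 value of day 3 over day 1 on the x axis and the log2 difference of INT-777 over DMSO on the y axis (edgeR). Blue marks genes lower with INT-777, red genes higher with INT-777 and grey genes not called. Gstp2 lies farthest right at 1.54, and Gstm3 lowest at -1.13 with a day value of 0.33.

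A list of 18 genes that make, carry or break down the donor molecules held 7 higher and 3 lower calls. Of all genes tested, 11.1% were higher and 10.3% lower. Without the block the list held 2 higher and 1 lower. Synthesis and turnover are mixed in it, so the counts do not measure supply. Ggct and Ggt1, of glutathione turnover, were among the higher genes, and Chac1 and Oplah, also of turnover, among the lower. Gss, glutathione synthetase, had 109, 109.96 and 112 CPM with INT-777 and 79.5, 77.2 and 72.2 CPM with DMSO with separate groups, and was higher at 0.53 ± 0.05 (edgeR adjusted p = 1.06e-06, and 0.00661 without the block). Gclc, the catalytic subunit of the rate-limiting enzyme of glutathione synthesis, had 228, 237 and 317 CPM with INT-777 and 195, 196 and 243 CPM with DMSO and was higher at 0.29 ± 0.04 (0.000155, and 0.372 without the block). Chac1, which breaks glutathione down, had 4.18, 3.84 and 3.74 CPM with INT-777 and 6.14, 6.55 and 7.85 CPM with DMSO and was lower at -0.80 ± 0.12 (0.000165, and 0.0322 without the block). Papss1, which makes the sulfate donor PAPS, had 58.9, 56.4 and 75.5 CPM with INT-777 and 70.5, 71.8 and 101 CPM with DMSO and was lower at -0.34 ± 0.05 (0.000105, and 0.391 without the block).

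Of 12 efflux transporters of conjugates, 3 were higher and 1 lower, where 11.1% of all genes were higher and 10.3% lower. Without the block 0 were called. Slc51a, a subunit of the basolateral exporter of bile acids and steroid conjugates, had 3.20, 3.71 and 3.94 CPM with INT-777 and 1.95, 1.89 and 2.50 CPM with DMSO and was higher at 0.78 ± 0.14 (edgeR adjusted p = 0.000955, and 0.0792 without the block). Abcc1, an exporter of glutathione conjugates, and Abcc5 were higher at 0.13 and 0.24 (0.0469 and 0.00139, and 0.253 and 0.15 without the block). Abcc6 was lower at -0.70 (0.0149, and 0.21 without the block). Of 13 other conjugation genes tested out of 19, 2 were higher and 1 lower, beside the same shares of all genes. Without the block 0 were called. Ethe1, which oxidizes glutathione persulfide, was at 0.27, and Hnmt, which methylates histamine, at -0.73 (edgeR adjusted p = 0.00506 and 0.0428, and 0.261 and 0.127 without the block).

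Of 19 sensors of foreign compounds, 3 were higher and 2 lower, where 11.1% of all genes were higher and 10.3% lower. Without the block 1 was higher and 0 lower. Ahrr, the repressor that AHR itself induces, had 12.7, 13.5 and 12.5 CPM with INT-777 and 5.99, 5.62 and 4.46 CPM with DMSO, with separate groups, and was higher at 1.27 ± 0.09 (edgeR adjusted p = 2.51e-07, and 0.00661 without the block). Ahr was at 0.26 and Nr1h4, the nuclear bile acid receptor FXR, at 0.28 (0.00442 and 0.00336, and 0.332 and 0.213 without the block). Vdr, the vitamin D receptor, was lower at -0.37 (9.54e-06, and 0.136 without the block). The RNA of Nfe2l2, which encodes NRF2, had 367, 368 and 354 CPM with INT-777 and 372, 385 and 321 CPM with DMSO and was not called (0.02 ± 0.04, edgeR adjusted p = 0.806). Nr1i2, which encodes PXR, had 47.4, 44.7 and 39.7 CPM with INT-777 and 44.0, 41.8 and 39.7 CPM with DMSO and was not called (0.07 ± 0.05, edgeR adjusted p = 0.374).

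Of 11 marker targets of AHR and NRF2 outside the 4 families, 6 were higher and 1 lower. Of all genes tested, 11.1% were higher and 10.3% lower. Without the block 2 targets were higher and 0 lower. The list mixes targets of the 2 factors, so its counts measure neither alone. Cyp1b1, Tiparp and Srxn1 were higher at 0.66, 0.16 and 0.13. Their edgeR adjusted p was 0.00937, 0.0361 and 0.046, and 0.757, 0.202 and 0.642 without the block. Hmox1, Osgin1, Txnrd1 and Gpx2 were not called (0.19, 0.19, 0.10 and 0.08, edgeR adjusted p = 0.0691, 0.0618, 0.112 and 0.267). Cyp1a1, the oxidase most used as a readout of AHR, had 154, 148 and 157 CPM with INT-777 and 106, 109 and 123 CPM with DMSO and was higher at 0.45 ± 0.04 (edgeR adjusted p = 3.89e-06, and 0.0239 without the block). Nqo1, a quinone reductase induced by both factors, had 141, 142 and 187 CPM with INT-777 and 112, 107 and 123 CPM with DMSO, at 0.46 ± 0.05 (1.28e-05, and 0.127 without the block). Aldh3a1, an aldehyde dehydrogenase, had 0.806, 0.840 and 1.54 CPM with INT-777 and 0.152, 0.195 and 0.323 CPM with DMSO, at 2.23 ± 0.29 (7.96e-05, and 0.046 without the block). Ephx1, the microsomal epoxide hydrolase, had 69.8, 73.0 and 90.2 CPM with INT-777 and 84.6, 86.3 and 95.3 CPM with DMSO and was lower at -0.20 ± 0.05 (0.00756, and 0.393 without the block).

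Markers of other cell states were counted in the same fit. With INT-777, 5 enterocyte markers were higher and 8 lower of 21 tested, and 2 stem cell markers were higher and 5 lower of 10. Of all genes tested, 11.1% were higher and 10.3% lower. Anpep, a brush border peptidase, was at -1.67 and Alpi, the intestinal alkaline phosphatase, at 0.81 (edgeR adjusted p = 1.62e-12 and 0.000136, and 0.0467 and 0.115 without the block), so enterocyte markers differed in both directions. None was higher and 4 were lower of 10 Paneth markers, and 5 were lower of 10 enteroendocrine markers. Without the block, 1 marker each of the enterocyte, Paneth and stem cell lists was lower and 0 were higher. Avil was higher among 6 tuft markers tested, at 0.35 (0.0091, and 0.574 without the block). No call was made among the 2 immune and 4 stromal markers tested. Liver markers, of which Fgb and Ahsg were at 0 in every library, summed to 10.6, 9.84 and 16.2 CPM with INT-777 and 17.1, 16.9 and 41.3 CPM with DMSO. The part of these cell states in the differences of the conjugation enzymes was not tested.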

How the data were processed

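RNA was measured in 6 bulk libraries, read as pairs of 100 nt on a BGISEQ-500 per the labels. The authors deposited raw counts (whole read pairs for each gene) without normalisation, in the layout of STAR gene counts per the file headers. The submitters' processing notes name FastQC, STAR 2.73a, edgeR 3.24.3 and the builds GRCm38 and mm10. No source used here gives the annotation release. Column 2, which ignores strand, was used because the first strand column held 50.1 to 50.6% of strand-assigned pairs, so overlapping genes on opposite strands cannot be told apart. Of 54838 identifiers 54809 matched GENCODE M21, which gave symbols and coordinates. Of the input pairs, 74.5 to 75.6% were assigned to genes. Unmapped (10.3 to 11.3%), multimapping (5.96 to 6.31%), ambiguous (4.35 to 4.54%) and featureless (3.32 to 3.83%) pairs stayed out of library sizes and tests.

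The conjugation enzymes and the other gene lists were chosen with earlier results of these data known. Counts were filtered with filterByExpr by group, scaled with TMM and fitted with edgeR 4.0.16 (robust quasi-likelihood, R 4.3.3) with day and treatment as terms, two-sided, with Benjamini-Hochberg adjustment over all 15998 genes and a threshold of 0.05. The SE was taken as the size of the log2 change divided by the root of F, and CPM are TMM-scaled. The labels state that a replicate number is the day of a shared sort, and deviations from the group means correlated at 0.329, 0.369 and 0.632 between libraries of days 1, 2 and 3. Across days 1 and 2 they correlated about as well (0.336 and 0.364), and day 3 against days 1 and 2 lay between -0.435 and -0.487, so in the data the pairing shows as day 3 standing apart. Labels name separate pools of 4 mice per day. Days 1 and 2 were nearly alike all the same, and p-values measure only the spread between these samples, which may be partly technical. Exon bases of exactly 1 gene served as length. All called genes of the 4 families, the 2 of smallest p and the most abundant per family, Ahrr, Nfe2l2 and Nr1i2, and up to 4 called genes of smallest p per further list are named with values. Lgr5, Eps8l3 and its neighbours were named for position or for the sort, and all marker targets of AHR and NRF2 because that list mixes 2 factors. A gene named by this rule has its result left out here. Alternatives used DESeq2 1.42.0, limma 3.58.1, other scalings, filters, strand columns and thresholds, and left out each library and day. Figures were drawn with matplotlib 3.10.9 in Python 3.11.15.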

Additional observations from a re-analysis of the deposited data

How the results depend on the processing

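Of the 19 calls among the conjugation enzymes, 10 were made in each of 18 fits with the day block (Gsta3, Gstk1, Gstm1, Gstm3, Gstm6, Gstm7, Gstt1, Mgst2, Sult1d1 and Sult2b1), and 11 in each of the 9 that left out a day or a library, which adds Gstm2. With the block, a library left out leaves its day without a pair, so the 9 are not separate checks. For Gsta1 the log2 difference was 0.0709 without day 1, 0.0713 without its INT-777 library and 0.0685 without its DMSO library. Without the block the numbers of all genes higher and lower were 110 and 122, against 1770 and 1645 with it, and those of the conjugation enzymes were 1 and 1. By family this left 0 higher and 1 lower in GST, 0 and 0 in MGST, 1 and 0 in SULT and 0 lower in UGT. The paired fit follows from the day given in the labels, so calls lost without it are not described as weaker effects. The following counts all include the block. DESeq2 called 1115 genes higher, 0 UGT lower and 1 SULT lower, and it lost Gsta2, Gstt2, Sult1c2 and Ugt2b36. With limma-voom 18 of the 19 calls remained. Upper quartile scaling gave 3 UGT lower, with Sult4a1, Ugt2b34 and Ugt2b35 newly called. No low-count filter gave 2 UGT and 4 SULT lower, with Sult4a1, Sult6b2 and Ugt2b35 newly called. Sult4a1 was also newly called with RLE scaling and with a filter of 20 counts. The first strand column gave 1042 genes higher, 0 MGST and 1 SULT lower, 13 of the 19 calls remained, and Ugt1a1 was newly called. The second kept 16 and newly called Ugt1a1 and Sult4a1. At an adjusted p under 0.01, 954 genes were higher, 971 lower and 10 conjugation enzymes lower, with 0 in MGST, 0 in UGT and 1 in SULT. A count rule of 100 in place of 20 gave 0 UGT and 1 SULT lower, and the rule met in both groups, added after seeing the data, 1 SULT lower. Leaving out a day or a library with the block gave 628 to 1989 genes higher and 851 to 2021 lower, and conjugation enzymes 3 higher and 8 to 19 lower, of which 7 to 14 were GST, 0 to 1 MGST, 0 to 1 UGT and 1 to 3 SULT. The fewest followed from leaving out DMSO on day 2. Without the block, an alternative that for whole days was added after seeing the data, leaving out gave 0 to 2225 genes higher and 0 to 2067 lower, and conjugation enzymes 0 to 3 higher and 0 to 20 lower. By family these were 0 to 1 higher in GST, MGST and SULT each, and 0 to 14 GST, 0 to 1 MGST, 0 to 2 UGT and 0 to 3 SULT lower. The signs of small differences turned in some fits. In the first strand column Gsta1 was at 0.0053, Gstz1 at 0.0021 and Mgst3 at 2.2e-06, and in the second Sult1b1 was at 0.052. With a day or library left out, in fits with or without the block, the log2 difference ran from -0.26 to 0.20 for Gsta1, -0.57 to 0.062 for Gsta2, -0.28 to 0.091 for Gsta4, -0.016 to 0.067 for Gsto1, -0.33 to 0.092 for Gstp1, -0.93 to 0.50 for Gstp2, -0.16 to 0.058 for Mgst3, -0.041 to 0.30 for Ugt1a6a, -0.15 to 0.015 for Ugt1a7c, -0.18 to 0.046 for Sult1b1 and -0.070 to 0.064 for Nfe2l2. Of these, Gsta2 and Gstp2 were called, and with the block they ran from -0.29 to -0.14 and from -0.25 to -0.18. The causes were not tested. With 3 libraries per group, genes near 1 CPM (Gstm7, Ugt2b36, Sult1c2) carry the largest errors among the called genes.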

Other observations

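Gm9515, an unprocessed pseudogene between Gstm5 and Gstm7 (chr3:107906782-107911249), had 0.445, 0.231 and 0.535 CPM with INT-777 and 0.847, 0.781 and 0.992 CPM with DMSO. The groups did not overlap, and its log2 difference was -1.13 ± 0.29 (edgeR adjusted p = 0.0103, and 0.158 without the block), at levels below 1 CPM. The pi class pseudogene Gstp-ps on chromosome 1 had 1.78 to 4.71 CPM with INT-777 and 2.37 to 4.44 CPM with DMSO and was not called (-0.17 ± 0.14, edgeR adjusted p = 0.439). Both were outside the 39 genes because they are not protein-coding.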
